A study of Homo sapiens with 24 samples.

Results

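Hth83 cells were sequenced 24 h after 60 s of Piezo-CAP and without treatment, and the comparison of these libraries is described here across all genes of the Hth83 count table. Its members were the 3 plasma libraries and the 3 untreated libraries that the labels assign to Hth83, 6 of the 24 libraries of the series, and the 61533 genes of that table, of which 17279 had enough counts to be tested. Piezo-CAP denotes plasma from a piezoelectric source, an ionised gas close to room temperature that brings reactive oxygen and nitrogen species to the cells. The series applied it in the same way to 3 other lines (Cal27, A375 and Fadu), and its title names chemotherapy and immune checkpoint blockade as the treatments that plasma is meant to assist.

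The untreated group (0 s) and the plasma group (60 s) were both wild type Hth83 cells, seeded overnight in 6-well plates in DMEM with 10% serum and antibiotics, and lysed in Trizol for mRNA libraries. The plasma groups and the untreated groups of Cal27 and A375 were grown in the same medium and those of Fadu in MEM. Each group is 1 line, an established cancer line without stroma, blood vessels or immune cells. Nothing in the labels says that libraries of 1 group are separate cultures, and p-values therefore measure only the spread between these libraries, which may be technical.

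A few systems run through the results. Proteins that enter the endoplasmic reticulum (ER) are folded there by resident chaperones, and when folding fails the sensors IRE1, PERK and ATF6 raise chaperone transcription, a programme called the unfolded protein response. PERK, and the kinases that sense amino acid lack, haem lack or double-stranded RNA, also slow translation and raise the factor ATF4, whose targets make and import amino acids, which is the integrated stress response. Cytosolic proteins are served by a separate set, the heat shock proteins under HSF1.

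Levels are given as CPM, counts scaled to a common library size with TMM factors, so each is a share of the library. A change is the log2 fold change of plasma over untreated with its standard error (SE), and a gene is said to have risen or fallen where its Benjamini-Hochberg adjusted p was under 0.05 in edgeR's quasi-likelihood test. Over all genes tested, 8657 passed (50.1%), of which 4477 were higher after plasma (25.9%) and 4180 lower (24.2%). The median change over all genes was 0.0035 and the median size among those that passed was 0.46, so most changes were small. At least 2-fold changes were called for 565 genes higher (3.27%) and 825 lower (4.77%). Of the genes that passed, 51.7% were higher, and 61.8% were so with limma on log2(TPM + 1) without a filter. The 3 untreated and the 3 plasma libraries did not overlap in CPM for 57.2% of the genes tested. These shares are the background beside which the counts of each gene group are read.

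The 6 libraries were alike in depth and composition. Total counts ran from 29808568 to 37882250 untreated and from 30903851 to 34939315 after plasma, with 25125 to 26159 genes counted at least once. The 10 most abundant genes took 6.377% to 6.511% of the counts untreated and 5.263% to 5.397% after plasma. On log2 CPM the first principal component, with 61.5% of the variance, separated the groups, and the second, with 10.7%, separated plasma library 2 from plasma library 3. In bulk RNA, fewer cells of a kind and less RNA per cell cannot be told apart.

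Hth83 is known as a line of anaplastic thyroid carcinoma, whereas the labels call all 4 lines head and neck cancer cells. Of 18 markers of squamous epithelium, 16 exceeded 10 CPM in untreated cells, among them TP63, the master regulator of that lineage, at 398, 395 and 377 CPM. Of 16 thyroid follicle markers only the lineage factor PAX8 did, at 129, 128 and 128 CPM. NKX2-1, the other defining thyroid factor, had 0 counts in all 6 libraries and TG, the thyroglobulin gene, at most 0.0687 CPM. No marker of melanocytes, leukocytes, endothelium or fibroblasts exceeded 10 CPM, and the defining markers TYR, PTPRC, CD3E and DCN had 0 counts in every library. Other genes of epithelia were scarce in part only. All 10 hemidesmosome genes exceeded 10 CPM untreated, as did 16 of 23 junction genes and 11 of 21 keratins. Of 32 genes of the cornified envelope and keratinocyte differentiation only 1 exceeded 10 CPM untreated. Of 28 epithelial-mesenchymal regulators and cadherins 24 were tested and 18 exceeded 10 CPM untreated, but CDH1, GRHL2, OVOL1 and ITGB6 were too low to test. Summed over their list, squamous markers stood at 11360 to 11930 CPM untreated and 7511 to 8219 CPM after plasma. Their part in the other changes was not tested.

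The ER folding machinery was lower after plasma almost throughout. Of 27 chaperones, folding enzymes and their regulators, 26 fell and 0 rose, beside 24.2% lower and 25.9% higher among all genes. Of those that fell 18 did so at least 2-fold (4.77% of all genes), and the median of the list was -1.44 beside 0.0035 for all genes. HSPA5 (ENSG00000044574.9, chromosome 9, 125234853 to 125241330, minus strand in GRCh38), the HSP70 chaperone of the ER lumen also called BiP, is the most familiar reporter of the unfolded protein response. It measured 8877, 7864 and 8604 CPM in untreated libraries 1 to 3 and 1148, 1156 and 1144 CPM in plasma libraries 1 to 3 (log2 fold change -2.88, SE 0.044, adjusted p 3.95e-29). All 3 plasma libraries lay near 1 level, far under every untreated library. HERPUD1 (ENSG00000051108.15, chromosome 16, 56932048 to 56944863, plus strand), which recruits the degradation machinery to the ER membrane, measured 551, 551 and 527 CPM untreated and 52.2, 49.3 and 52.7 CPM after plasma (log2 fold change -3.40, SE 0.049, adjusted p 9.98e-30). The 2 groups did not overlap, and this was the largest fall of the list. DNAJB9, a co-chaperone of HSPA5 that also restrains IRE1, measured 98.6, 99.3 and 97.7 CPM untreated and 18.02, 16.5 and 17.9 CPM after plasma (log2 fold change -2.49, SE 0.063, adjusted p 1.70e-23). Here too each plasma library was under each untreated one.

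The fall extended through the folding enzymes. HSP90B1, the HSP90 of the ER, fell from 2237 to 968 CPM (-1.21), and HYOU1, a nucleotide exchange factor of HSPA5, fell from 1399 to 462 CPM (-1.60). The disulfide isomerase PDIA4 fell from 987 to 344 CPM and PDIA6 fell from 491 to 265 CPM. The lectin chaperones of glycoproteins fell less, CALR from 1333 to 815 CPM and CANX from 2463 to 1935 CPM. ERO1A, the oxidase that recharges disulfide isomerases and a known hypoxia target, was the 1 member that did not pass (133, 140.4 and 129 CPM untreated and 119, 139 and 138 CPM after plasma), whereas its relative ERO1B fell from 84.01 to 20.3 CPM (-2.05). The secreted ER proteins MANF and CRELD2 fell from 221 to 64.1 CPM and from 152 to 49.7 CPM.

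The sensors and the disposal route of the ER moved the same way at smaller size. Of 12 sensors and their transcription factors 10 fell and 0 rose (median -0.87). Some of them, such as ERN1 and XBP1, are also in the chaperone list, so part of these falls is counted in both lists. The sensor kinase genes ERN1, which encodes IRE1, and EIF2AK3, which encodes PERK, fell from 80.5 to 29.7 CPM and from 55.6 to 22.5 CPM. XBP1, the factor that IRE1 activates by splicing, fell from 227 to 109 CPM, and ATF6 fell from 77.9 to 68.5 CPM, a call that ended without plasma library 1 (adjusted p 0.0568). Gene counts do not separate spliced from unspliced XBP1. FICD, which modifies HSPA5 with AMP, fell from 26.6 to 5.04 CPM (-2.40). Of 30 genes of ER-associated degradation 19 fell and 5 rose, and HERPUD1 of the chaperone list is counted here again. Those that fell included the ligase SYVN1 (from 239 to 73.9 CPM) and its partner SEL1L (from 443 to 128 CPM). The 5 that rose were the cytosolic ATPase VCP with its cofactors UFD1 and NPLOC4, the membrane scaffold ERLIN1 and the conjugating enzyme UBE2G2, with changes of 0.16 to 0.51.

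Further along the secretory route, 43 of 48 genes of ER to Golgi transport fell and 0 rose (median -0.52). SEC24D, a cargo adaptor of COPII vesicles, fell from 202 to 63.7 CPM (-1.67), and MIA2, which helps to load large cargo, fell from 125 to 34.4 CPM. COPB1, a subunit of the COPI coat that carries cargo back, fell from 637 to 384 CPM. Of 50 genes of ER import and N-glycosylation 35 fell and 6 rose (median -0.37). GFPT1, the entry enzyme of the hexosamine pathway that supplies sugar nucleotides, led with 429.8, 399 and 482 CPM untreated and 112, 124 and 118 CPM after plasma (log2 fold change -1.89, SE 0.058, adjusted p 2.27e-18). The groups were apart. SEC61A1, the pore of the translocon, fell from 696 to 386 CPM. The sensor, degradation, transport and import lists were assembled after values had been seen and describe those genes only.

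The ER stress element (ERSE) is the DNA sequence through which ATF6 and XBP1 act, and its letters stand in several of these promoters. The sequences are those of RefSeq (GRCh38.p14), 5′ to 3′ on the gene's strand, with the match in capitals. HSPA5 is shown whole, the 250 bases before the gene start, because no GENCODE 29 exon overlaps it, and of the others 30 bases around a match are shown. The positions are chr9:125241344-125241593 (minus strand), chr12:103930315-103930344 (plus), chr22:49918548-49918577 (plus), chr1:236282178-236282207 (minus) and chr22:28800598-28800627 (minus).
HSPA5: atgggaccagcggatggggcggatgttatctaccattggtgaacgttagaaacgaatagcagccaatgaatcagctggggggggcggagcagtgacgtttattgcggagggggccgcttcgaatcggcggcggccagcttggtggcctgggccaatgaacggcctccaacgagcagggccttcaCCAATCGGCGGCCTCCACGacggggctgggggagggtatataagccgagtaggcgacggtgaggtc
HSP90B1: tgggtgCGTGGTGCGGCGCGATTGGtgggt
CRELD2: acctctCGTGGCGAACTCGGATTGGgccat
ERO1B: ggcccgCGTGGTCCCGCCTCATTGGccgcc
XBP1: cgctggCCAATCGCGGAGGGCCACGaccgt
The search was for CCAAT and CCACG with 9 bases of any kind between them, on either strand, and the pair was found in 22 of 27305 promoters of that length (0.0806%). It was in 7 of 24 promoters of the ER chaperone list (29.2%), whose genes were all tested, beside 15 of 11322 promoters of tested genes (0.132%). HSP90B1 held 2 matches, 194 and 89 bases before the start, of which the nearer is printed. Of the 15 tested genes with a match 13 fell and 0 rose, beside 25.9% lower among the 11322 tested genes with a promoter in the table, and 7 of the 15 are the ER chaperone members just counted. The 2 that did not pass were FRG2 and ZNF17. A match is a description of letters and not evidence of binding.

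**Figure D1:**
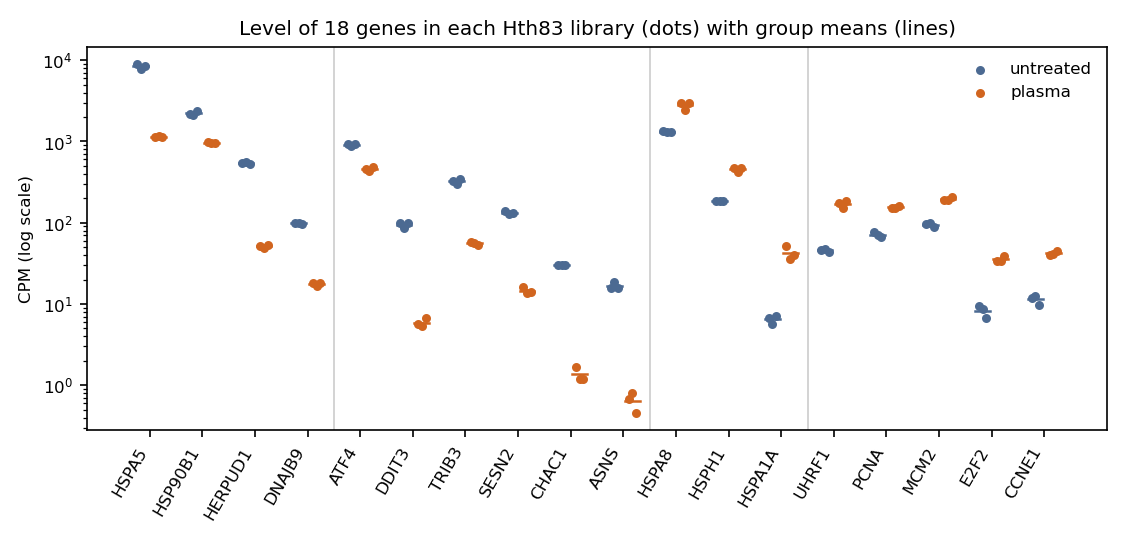
Level of 18 genes in each Hth83 library, in CPM on a log axis. Each dot is a library, blue untreated and orange plasma, and each short line a group mean of 3 libraries; the vertical lines separate ER, integrated stress, heat shock and replication genes. The groups of all 18 genes are apart, lower after plasma for the first 10 and higher for the last 8. Groups did not overlap for 57.2% of all genes tested. For some genes drawn, such as HERPUD1, DDIT3 and E2F2, the rule of the largest changes required it.

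The integrated stress response held 5 of the 12 largest falls among the genes that the naming rule selects. Of 31 tested genes downstream of ATF4, 27 fell, 21 of them at least 2-fold, and 4 rose (median -1.44). ATF4 itself measured 938, 873 and 929 CPM untreated and 462, 436 and 486 CPM after plasma (log2 fold change -0.99, SE 0.045, adjusted p 2.68e-17). All plasma libraries were under all untreated ones, although ATF4 is controlled mainly at translation, which these data do not measure. DDIT3 (ENSG00000175197.13, chromosome 12, 57516588 to 57521737, minus strand), which encodes the pro-apoptotic factor CHOP, measured 98.9, 84.96 and 99.4 CPM untreated and 5.63, 5.39 and 6.66 CPM after plasma (log2 fold change -4.00, SE 0.086, adjusted p 1.31e-24). TRIB3, a pseudokinase induced by CHOP and ATF4, measured 329, 301 and 343 CPM untreated and 58.7, 56.8 and 52.6 CPM after plasma (log2 fold change -2.53, SE 0.055, adjusted p 9.26e-25). Both genes were low in each of the 3 plasma libraries, and neither range overlapped.

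CHAC1, which degrades glutathione and marks the ATF4-CHOP branch, measured 29.95, 30.5 and 29.9 CPM untreated and 1.68, 1.21 and 1.2 CPM after plasma (log2 fold change -4.46, SE 0.13, adjusted p 2.99e-22). All 3 plasma libraries were under 2 CPM. PPP1R15A, the phosphatase subunit that reverses the translation block, fell from 355 to 68.1 CPM (-2.38). ATF3, a stress-induced repressor, measured 31.6, 27.7 and 29.7 CPM untreated and 4.99, 7.96 and 5.72 CPM after plasma (log2 fold change -2.26, SE 0.12, adjusted p 2.17e-14). Of 10 genes that restrain the growth kinase mTORC1, 4 rose (40.0%) and 4 fell (40.0%), beside 25.9% and 24.2% of all genes. SESN2 and DDIT4 were among those that fell, from 133 to 14.6 CPM (-3.18) and from 712 to 166 CPM (-2.10).

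GDF15, a secreted stress hormone that acts on appetite, had the largest log2 fall among genes with at least 10 CPM in the higher group and no overlap between groups. It measured 79.2, 79.2 and 131 CPM untreated and 2.999, 2.03 and 2.43 CPM after plasma (log2 fold change -5.26, SE 0.36, adjusted p 2.89e-04). Untreated library 3 was the highest, and its spread left GDF15 with a larger adjusted p than its neighbours in size. FGF21, another stress hormone, measured 0.593, 0.553 and 0.549 CPM untreated and had 0 counts in all 3 plasma libraries. Set against 3 counts over the plasma group it was at least 19.3-fold lower, and the median of the list was -1.44 with FGF21 at that bound. VEGFA, the angiogenic growth factor and also an ATF4 target, fell from 989 to 387 CPM (-1.35). The 4 members that rose were PSPH (0.15), ATF5 (0.34), CEBPD (0.39) and the scarce ALDH1L2 (from 0.216 to 0.535 CPM). Leaving out 1 library ended 3 of these calls in edgeR's quasi-likelihood test. The adjusted p reached 0.155 for ALDH1L2 without untreated library 3 (over 0.05 without any 1 of the 6), 0.0752 for ATF5 without plasma library 1 (also without plasma library 3 or untreated library 1) and 0.107 for PSPH without plasma library 1 (in all but the case without plasma library 2).

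Most genes of amino acid supply were lower too. Of 16 enzymes of serine, asparagine and one-carbon synthesis 11 fell and 5 rose. ASNS (ENSG00000070669.17, chromosome 7, 97852118 to 97872542, minus strand), asparagine synthetase, measured 15.7, 18.8 and 15.6 CPM untreated and 0.673, 0.793 and 0.457 CPM after plasma (log2 fold change -4.71, SE 0.18, adjusted p 1.50e-19). No plasma library reached 1 CPM. PHGDH and PSAT1, the first enzymes of serine synthesis, fell from 161 to 59.1 CPM and from 519 to 156 CPM. MTHFD2 and SHMT2 of the mitochondrial folate cycle fell from 328 to 132 CPM and from 407 to 236 CPM, whereas their cytosolic counterparts MTHFD1 and SHMT1 rose from 149 to 205 CPM and from 28.5 to 42.7 CPM.

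Of 14 amino acid transporters 11 fell and 3 rose. SLC7A11, the cystine importer on which glutathione synthesis and resistance to ferroptosis rest, measured 691, 726 and 764 CPM untreated and 177, 201 and 211 CPM after plasma (log2 fold change -1.89, SE 0.054, adjusted p 5.76e-20). The groups were far apart. Its partner chain SLC3A2 and the leucine importer SLC7A5 fell far less, from 1143 to 866 CPM and from 3864 to 3052 CPM. SLC1A3, a glutamate and aspartate importer, rose from 9.85 to 26.1 CPM. Of 20 cytosolic tRNA synthetases 14 fell and 2 rose (median -0.67). AARS1, GARS1 and CARS1 had the largest falls, with log2 fold changes of -1.57, -1.45 and -1.44. VARS1 and RARS1 rose by 0.19 and 0.24.

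ATF4 with C/EBP partners binds the C/EBP-ATF response element (CARE), written here as TGATGNAA on either strand. It stood in 870 of 27305 promoters (3.19%), in 4 of 26 of the integrated stress list (15.4%) and in 2 of 16 of the synthetases. The matches of 5 genes that fell are shown as 30 bases of RefSeq (GRCh38.p14) each, at chr7:97872458-97872487 (minus), chr15:40953251-40953280 (plus), chr1:212565205-212565234 (plus), chr16:56931955-56931984 (plus) and chr16:70289675-70289704 (minus).
ASNS: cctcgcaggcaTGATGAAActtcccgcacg
CHAC1: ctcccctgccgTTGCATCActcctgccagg
ATF3: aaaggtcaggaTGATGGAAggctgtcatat
HERPUD1: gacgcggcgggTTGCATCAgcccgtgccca
AARS1: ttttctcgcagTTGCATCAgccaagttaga
CHAC1, HERPUD1 and AARS1 carry the same 8 letters in the same orientation. The list shares cover tested genes, and among all 11322 tested genes with a promoter 165 held a match (1.46%). Of these 165, 58 fell (35.2%) and 40 rose (24.2%), beside 25.9% and 30.4% of all tested genes with a promoter in the table.

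Cytosolic chaperones went the opposite way to those of the ER. Of 26 heat shock proteins, co-chaperones and their factors 19 rose, 7 at least 2-fold, and 3 fell (median 0.71). HSPA1A (ENSG00000204389.10, chromosome 6, 31815464 to 31817946, plus strand) and its near-identical neighbour HSPA1B, which encode the stress-inducible HSP70, had the highest rises of the list, and reads may be shared between them. HSPA1A measured 6.69, 5.699 and 7.18 CPM untreated and 51.4, 35.8 and 39.7 CPM after plasma (log2 fold change 2.70, SE 0.13, adjusted p 1.67e-12). HSPA1B measured 11.1, 12.1 and 11.9 CPM untreated and 76.01, 54.3 and 60.7 CPM after plasma (log2 fold change 2.45, SE 0.10, adjusted p 2.18e-13). Plasma library 1 was the highest of the 6 for both, and no plasma value came near an untreated one.

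Abundant chaperones of the cytosol rose by differing amounts. HSPA8, the constitutive HSP70, measured 1336, 1295 and 1304 CPM untreated and 2989.6, 2446 and 2977 CPM after plasma (log2 fold change 1.10, SE 0.062, adjusted p 4.39e-10), with plasma library 2 the lowest of its group. HSP90AA1, the inducible cytosolic HSP90, rose from 1948 to 4129.8 CPM (1.08), and HSP90AB1, the constitutive form, rose from 2420.1 to 3342 CPM, all with processed pseudogenes that can share reads. HSPH1, the exchange factor HSP110, measured 188, 183 and 184 CPM untreated and 471, 425 and 476 CPM after plasma (log2 fold change 1.31, SE 0.047, adjusted p 5.76e-20). The co-chaperones DNAJA1 and DNAJB1 rose from 94.5 to 223 CPM and from 95.5 to 174 CPM. The 3 members that fell were HSPA13, an HSP70 of microsomes (from 308 to 105 CPM), HSPA9 of mitochondria (from 1348 to 842 CPM), and HSF1 itself (from 155 to 132 CPM).

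The heat shock element, searched on either strand as GAA, TTC and GAA, or TTC, GAA and TTC, with 2 bases of any kind between neighbours, was in 120 of 27305 promoters (0.439%) and in 3 of 23 of this list. Those were HSPA8, CHORDC1, an HSP90 co-chaperone that rose from 83.3 to 156 CPM, and DNAJB6, which did not pass (157 and 158 CPM). Of HSPA8 the match nearer the start is shown (chr11:123062171-123062200, minus), and the 3 matches of CHORDC1, which overlap one another, are shown together (chr11:90223084-90223113, minus), both from RefSeq.
HSPA8: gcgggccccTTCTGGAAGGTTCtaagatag
CHORDC1: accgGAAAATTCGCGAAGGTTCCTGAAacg
Among all 11322 tested genes with a promoter 30 held a match (0.265%). Of these 30, 11 rose and 6 fell, beside 30.4% and 25.9% of all tested genes with a promoter in the table.

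Other cytosolic machinery for protein quality rose by little. Of 31 proteasome subunits 26 rose and 0 fell (median 0.27), led by the base subunit PSMD1 (from 102 to 171 CPM) and the core subunit PSMB2 (from 190.2 to 292 CPM). Of 8 subunits of the chaperonin TRiC, which folds actin and tubulin, 5 rose and 0 fell, with CCT3 highest at 0.47. For autophagy the record was mixed: 15 of 33 genes rose (45.5%) and 10 fell (30.3%), beside 25.9% and 24.2% of all genes. MAP1LC3B, whose lipid-bound protein coats autophagosomes, fell from 422 to 102 CPM (log2 fold change -2.05, SE 0.056, adjusted p 1.57e-20). CTSA, a lysosomal enzyme, rose from 63.9 to 114 CPM.

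**Figure D2:**
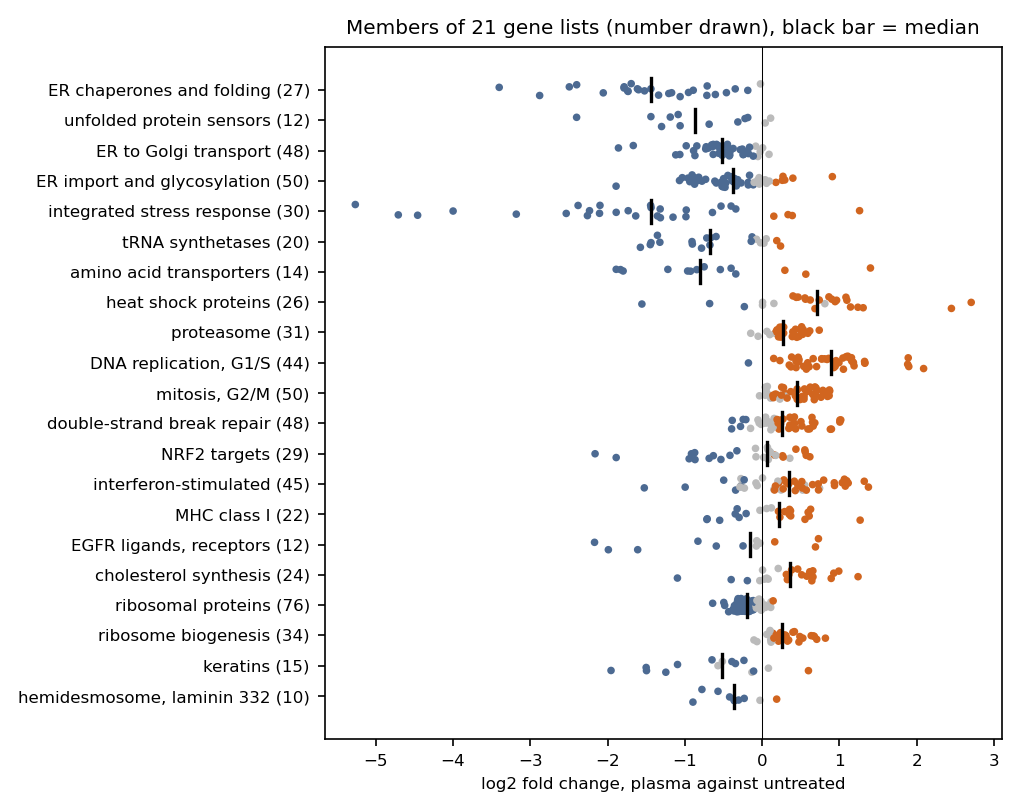
Log2 fold change of plasma over untreated for the members of 21 gene lists. Each dot is a gene, orange if it rose, blue if it fell and grey if it did not pass, and the black bar is the median; FGF21, with 0 counts after plasma, is not drawn. Medians are lowest for ER chaperones and the integrated stress response and highest for DNA replication and heat shock proteins.

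Genes of DNA replication and the G1 to S transition rose nearly as a whole. Of 44 members 43 rose (25.9% of all genes did), 17 of them at least 2-fold (3.27%), and 1 fell, with a median of 0.89. UHRF1 (ENSG00000276043.5, chromosome 19, 4903080 to 4962154, plus strand), which recruits DNA methylation to new strands, measured 46.7, 47.4 and 43.2 CPM untreated and 173, 153 and 183 CPM after plasma (log2 fold change 1.89, SE 0.061, adjusted p 3.92e-20). E2F2, a transcription factor of the G1 to S transition, measured 9.38, 8.74 and 6.66 CPM untreated and 33.8, 33.8 and 38.6 CPM after plasma (log2 fold change 2.09, SE 0.10, adjusted p 3.65e-16). E2F8, a repressor of the same family that rises in S phase, measured 12.2, 11.9 and 10.1 CPM untreated and 43.1, 38.2 and 46.4 CPM after plasma (log2 fold change 1.90, SE 0.089, adjusted p 4.50e-17). In these 3 genes the lowest plasma library exceeded the highest untreated library. CCNE1, the cyclin that starts S phase with CDK2, measured 11.8, 12.7 and 9.75 CPM untreated and 40.2, 41.5 and 45.4 CPM after plasma (log2 fold change 1.88, SE 0.089, adjusted p 5.73e-17).

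All 6 subunits of the replicative helicase rose, from MCM7 (from 313 to 477 CPM) to MCM6 (from 73.3 to 167 CPM). PCNA, the sliding clamp, measured 75.97, 71.3 and 65.9 CPM untreated and 152, 151 and 160.0 CPM after plasma (log2 fold change 1.12, SE 0.054, adjusted p 7.26e-17). The GINS component GINS2 rose from 27.8 to 69.99 CPM and the nuclease FEN1 from 63.5 to 142 CPM. The 1 member that fell was CDC6, which loads the helicase at origins (from 119 to 105 CPM, -0.18), with an adjusted p of 0.0734 without untreated library 1. FAM111B, an S-phase protease outside the list, was among the 12 largest rises of the comparison, at 20.7, 22.2 and 21.02 CPM untreated and 91.4, 82.2 and 94.3 CPM after plasma (log2 fold change 2.07, SE 0.066, adjusted p 3.94e-21).

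Regulators of this transition were described with a list made after values had been seen. Of its 30 members 20 rose and 5 fell. CCND1 and CCND3, cyclins of G1, rose from 457 to 758 CPM and from 23.8 to 62.6 CPM, whereas CCND2 fell from 67.01 to 30.5 CPM. The inhibitor CDKN1A, a p53 target, measured 221, 199 and 242 CPM untreated and 127, 115 and 110.3 CPM after plasma (log2 fold change -0.91, SE 0.063, adjusted p 1.32e-10), and CDKN1B fell from 114 to 85.7 CPM. The E2F site, searched as TTTGGCGC or TTTCCCGC on either strand, was in 536 of 27305 promoters (1.96%) and in 14 of 38 of the replication list (36.8%). Among all 11322 tested genes with a promoter 351 held a match (3.1%). Of these 351, 136 rose (38.7%) and 66 fell (18.8%), beside 30.4% and 25.9% of all tested genes with a promoter.

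The promoters of E2F2 and MCM6, in which GENCODE 29 has no exon, are shown whole from RefSeq (chr1:23531234-23531483 and chr2:135876444-135876693, both minus), as examples of those matches. For UHRF1 (chr19:4909471-4909500, plus), PCNA (chr20:5126663-5126692, minus) and GINS2 (chr16:85688967-85688996, minus) the 30 bases around the match are shown.
E2F2: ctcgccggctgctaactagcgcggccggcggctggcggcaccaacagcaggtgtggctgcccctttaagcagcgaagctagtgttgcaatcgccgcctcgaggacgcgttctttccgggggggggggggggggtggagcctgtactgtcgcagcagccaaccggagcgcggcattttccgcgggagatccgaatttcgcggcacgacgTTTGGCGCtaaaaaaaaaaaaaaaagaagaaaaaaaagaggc
MCM6: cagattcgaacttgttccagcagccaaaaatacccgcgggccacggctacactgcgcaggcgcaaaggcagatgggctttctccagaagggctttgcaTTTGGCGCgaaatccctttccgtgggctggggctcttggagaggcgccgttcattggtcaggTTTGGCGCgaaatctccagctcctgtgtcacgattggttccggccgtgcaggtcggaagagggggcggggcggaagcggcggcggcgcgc
UHRF1: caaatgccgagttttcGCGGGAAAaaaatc
PCNA: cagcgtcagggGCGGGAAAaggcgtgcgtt
GINS2: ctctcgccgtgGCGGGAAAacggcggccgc
MCM6 holds the site TTTGGCGC at 152 and at 90 bases before the start, and the other 4 hold 1 match each. The UHRF1 match lies before the RefSeq start but inside the GENCODE 29 span of the gene given above.

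Mitosis genes rose too, by less. Of 50 members 40 rose and 0 fell (median 0.46), with 0 at least 2-fold higher. MKI67, the usual proliferation marker, measured 507, 534 and 508 CPM untreated and 828, 822 and 851 CPM after plasma (log2 fold change 0.69, SE 0.042, adjusted p 1.47e-14). CCNB1, the mitotic cyclin, measured 255, 245 and 227 CPM untreated and 413, 399.5 and 420.4 CPM after plasma (log2 fold change 0.76, SE 0.046, adjusted p 1.84e-14). Both sets of libraries were apart. Of 48 genes of double-strand break and crosslink repair 30 rose and 5 fell. BRCA1, which acts in recombination repair, rose from 91.3 to 139.9 CPM and H2AX, the histone variant phosphorylated at breaks, from 75.98 to 153 CPM. The 5 that fell were CHEK2, ATM, RAD52, TP53BP1 and WRN, with log2 fold changes of -0.39 to -0.21. Of these 5, limma on log2(TPM + 1) called only ATM, with adjusted p of 0.0585 to 0.211 for the others.

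Stress genes under p53 did not move as 1 block. Of 30 targets 11 rose (36.7%) and 12 fell (40.0%), beside 25.9% and 24.2% of all genes. The falls included several genes known as targets of ATF4 and CHOP too, such as the BH3-only BBC3 (from 14.7 to 5.45 CPM) and the death receptor TNFRSF10B (from 340.3 to 164 CPM). The part of ATF4 and CHOP in these falls was not tested. SESN2 is in this list and in the integrated stress list, so its fall is counted in both. GADD45A, an arrest and repair gene, fell from 138 to 40.3 CPM. MDM2, the ligase that degrades p53, measured 75.1, 75.4 and 77.3 CPM untreated and 67.1, 75.8 and 75.7 CPM after plasma (log2 fold change -0.059, SE 0.057, adjusted p 0.414). PLK2 rose from 72.4 to 147 CPM, FAS from 11.1 to 16.8 CPM and the pore-forming BAX from 19.6 to 31.5 CPM. In the BCL2 family 8 of 18 members rose (44.4%) and 7 fell (38.9%). The survival genes BCL2L1 and MCL1 fell from 179 to 92.9 CPM and from 863 to 642 CPM, as did the BH3-only PMAIP1 (from 220.2 to 120.3 CPM), while the BH3-only genes BMF and BCL2L11 rose from 9.48 to 20.9 CPM and from 7.095 to 12.4 CPM.

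Redox genes, the class most directly tied to reactive species, split. Of 29 targets of NRF2, the main antioxidant factor, 8 rose (27.6%) and 11 fell (37.9%), with a median of 0.069. Among all genes 25.9% rose and 24.2% fell, so the share that rose was near that of all genes. NQO1, a quinone reductase, measured 147, 127 and 149.8 CPM untreated and 206, 211 and 233 CPM after plasma (log2 fold change 0.62, SE 0.058, adjusted p 1.48e-09). HMOX1, haem oxygenase, was scarce, at 2.35, 1.85 and 2.404 CPM untreated and 3.05, 4.19 and 2.57 CPM after plasma (log2 fold change 0.57, SE 0.22, adjusted p 0.0294). Both rose, although HMOX1 stayed under 5 CPM in every library and missed the threshold without plasma library 2 (adjusted p 0.222) and without untreated library 2 (0.14). TXNRD1, the thioredoxin reductase, fell from 566 to 424 CPM (-0.42), and GCLC, the catalytic subunit of glutathione synthesis, fell from 57.8 to 35.9 CPM, whereas its modifier GCLM rose from 71.6 to 96.9 CPM. The aldo-keto reductases AKR1C1, AKR1C2 and AKR1C3, which are near-identical in sequence, were lower with log2 fold changes of -0.91 to -0.63, of which limma on log2(TPM + 1) called AKR1C2 only.

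Several genes of peroxide and metal handling rose. PRDX1 rose from 277 to 407 CPM and both superoxide dismutases rose, SOD1 from 134 to 179 CPM and SOD2 from 166 to 222 CPM. TFRC, the transferrin receptor through which iron enters, measured 291, 289 and 272 CPM untreated and 687, 539 and 777 CPM after plasma (log2 fold change 1.23, SE 0.15, adjusted p 0.00209). This was the largest change of the 12 iron genes, of which 6 rose and 2 fell. All 6 tested genes of the metallothionein and zinc list rose, with MT2A from 276 to 331 CPM. TXNIP, which binds thioredoxin and limits glucose uptake, rose from 3.45 to 9.85 CPM (1.51).

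Signalling genes changed in opposite directions within a pathway. Of 12 EGFR family genes 6 fell and 3 rose. AREG, amphiregulin, an EGFR ligand of epithelia, measured 978, 893 and 975 CPM untreated and 194, 222 and 218 CPM after plasma (log2 fold change -2.17, SE 0.051, adjusted p 1.92e-23). HBEGF, another ligand, measured 1382, 1243 and 1436 CPM untreated and 321, 361 and 342 CPM after plasma (log2 fold change -1.99, SE 0.052, adjusted p 4.67e-21). The feedback inhibitor of the receptor, ERRFI1, fell from 992 to 325 CPM (-1.61), and EGFR itself fell from 536 to 452 CPM. In each of these 4 genes the groups were apart. Of 22 ERK output and feedback genes 10 fell (45.5%) and 9 rose (40.9%), beside 24.2% and 25.9% of all genes. Among them the phosphatase DUSP5 was lower (from 169.9 to 79.2 CPM) and CCND1 higher.

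Of 25 immediate early genes 10 fell (40.0%) and 6 rose (24.0%), beside 24.2% and 25.9% of all genes. KLF4, a differentiation factor, fell from 44.9 to 8.92 CPM (-2.33), EGR1 from 119 to 67.01 CPM and FOS from 36.3 to 25.5 CPM, whereas JUN rose from 90.1 to 128 CPM. FOS was not called in the joint edgeR fit of all 24 libraries (adjusted p 0.0672) or by limma on log2(TPM + 1) (adjusted p 0.0867). Of 19 Wnt genes 11 rose and 3 fell. LGR4, a receptor of the Wnt-enhancing R-spondins, rose from 59.9 to 176 CPM (1.56), and the extracellular inhibitors SFRP1 and DKK1 rose from 237 to 569 CPM and from 10.8 to 24.97 CPM. Of 22 targets of YAP and TEAD 11 rose and 7 fell, with the matrix protein THBS1 from 503 to 1071 CPM.

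Cytokine genes were also divided. Of 26 NF-kB cytokines and acute phase genes 9 rose (34.6%) and 11 fell (42.3%), beside 25.9% and 24.2% of all genes. CXCL1 and CXCL2, both neutrophil chemokines, moved apart: CXCL1 measured 80.4, 72.2 and 60.9 CPM untreated and 197, 188 and 251 CPM after plasma (log2 fold change 1.57, SE 0.17, adjusted p 0.00125). CXCL2 measured 71.5, 60.9 and 75.2 CPM untreated and 14.7, 15.8 and 13.6 CPM after plasma (log2 fold change -2.24, SE 0.081, adjusted p 2.23e-19). Neither gene overlapped between groups. CSF3, which drives neutrophil production, rose from 90.3 to 234 CPM, and IL1A and IL1B fell from 1061 to 494 CPM and from 3029 to 2185 CPM, IL1B with an adjusted p of 0.0588 without plasma library 3. IL6 rose but stayed scarce, at 0.674, 0.166 and 0.859 CPM untreated and 1.04, 1.46 and 2.06 CPM after plasma (log2 fold change 1.44, SE 0.40, adjusted p 0.00394), and limma on log2(TPM + 1) did not call it (adjusted p 0.0727). CXCL8 did not pass, at 66.96, 55.3 and 62.9 CPM untreated and 61.99, 71.98 and 95.5 CPM after plasma (log2 fold change 0.31, SE 0.19, adjusted p 0.259), but did without plasma library 1 (adjusted p 0.014).

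Immune recognition is the theme of the series title. Of 45 interferon-stimulated genes 26 rose and 6 fell (median 0.34). OAS3, a sensor enzyme of double-stranded RNA, measured 75.2, 78.98 and 69.95 CPM untreated and 159, 153 and 161 CPM after plasma (log2 fold change 1.08, SE 0.052, adjusted p 8.40e-17). PARP9, an ADP-ribosyltransferase induced by interferon, rose from 23.6 to 40.99 CPM. ISG15, the ubiquitin-like effector, measured 6.605, 5.04 and 5.598 CPM untreated and 8.97, 10.2 and 7.95 CPM after plasma (log2 fold change 0.65, SE 0.14, adjusted p 2.20e-04). Many of the list were scarce: IFIT1, an RNA-binding effector, rose from 1.54 to 3.97 CPM, and the genes MX2, RSAD2 and CXCL10 were too low to test. TRIM25 and ISG20 fell from 271 to 136 CPM and from 12.7 to 4.41 CPM.

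Of 22 genes of MHC class I and peptide loading 12 rose and 7 fell. B2M, the light chain, rose from 344 to 420.5 CPM (0.29), and the transporter chain TAP2 and tapasin (TAPBP) rose from 30.9 to 46.7 CPM and from 62.3 to 91.5 CPM. HLA-B and HLA-C fell from 24.8 to 16.98 CPM and from 67.3 to 58.3 CPM, with the caution that reads of these polymorphic copies are hard to assign and that limma on log2(TPM + 1) did not call HLA-C (adjusted p 0.147). The other falls included CALR, PDIA3 and CANX, which are ER chaperones counted above. CD274, the checkpoint ligand PD-L1, measured 7.39, 7.55 and 6.25 CPM untreated and 9.42, 8.72 and 9.604 CPM after plasma (log2 fold change 0.39, SE 0.12, adjusted p 0.0109). It rose by little, and its groups did not overlap, but the adjusted p was 0.0657 without untreated library 3. CD276, another member of the B7 family, rose from 112 to 159 CPM. Of all 18 checkpoint ligands and regulators tested 8 rose (44.4%) and 3 fell (16.7%), beside 25.9% and 24.2% of all genes.

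Ligands of the NK cell receptor NKG2D split. MICB measured 24.2, 25.3 and 22.2 CPM untreated and 55.8, 61.4 and 55.6 CPM after plasma (log2 fold change 1.27, SE 0.070, adjusted p 2.20e-15). ULBP1, a known ATF4 target, measured 10.6, 10.1 and 12.6 CPM untreated and 1.01, 1.21 and 1.49 CPM after plasma (log2 fold change -3.16, SE 0.17, adjusted p 1.61e-15). MICB was thus higher and ULBP1 lower in each plasma library than in any untreated one. Of 12 tested genes of that list 5 rose (41.7%) and 2 fell (16.7%), beside 25.9% and 24.2% of all genes, and 3 rose without plasma library 1.

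Most genes of sterol synthesis rose. Of 24 cholesterol genes 15 rose and 3 fell (median 0.36). HMGCS1, which acts at the start of the route, rose from 55.2 to 103 CPM, and STARD4, a sterol carrier, fell from 146 to 68.3 CPM. Of 14 fatty acid genes 4 rose (28.6%) and 5 fell (35.7%), beside 25.9% and 24.2% of all genes. FASN, from 421 to 720.2 CPM, and ELOVL6, from 15.01 to 34.7 CPM, were among the rises. Of 23 glycolysis genes 14 rose and 4 fell, with LDHA from 1832 to 2902 CPM and PKM from 1436 to 2195 CPM among the rises. Hypoxia targets outside glycolysis fell in 9 of 17 cases and rose in 2, with NDRG1 from 549 to 181 CPM next to DDIT4 and VEGFA, which the ATF4 list also holds.

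Genes of the translation apparatus changed in both directions. Of 76 ribosomal protein genes 58 fell and 1 rose, with a median of -0.20 and the lowest log2 fold change (-0.64) in RPL12. Their many processed pseudogenes can share reads, as can those of EEF1A1. Of 28 translation factors 9 rose and 14 fell. The elongation factors EEF1A1 and EEF2 fell from 9572 to 6839 CPM and from 4148 to 2788 CPM. Hosts of small nucleolar RNAs, many of which, like ribosomal protein genes, begin their transcripts with a terminal oligopyrimidine tract, fell in 10 of 15 cases and rose in 0, with GAS5 from 416 to 269 CPM. Ribosome assembly went the other way, with 26 of 34 genes higher and 0 lower (median 0.26), among them RRS1 from 44.02 to 77.6 CPM. MYC, which drives ribosome assembly, measured 198, 208 and 209 CPM untreated and 209, 229.9 and 233 CPM after plasma (log2 fold change 0.13, SE 0.048, adjusted p 0.0271), and its call ended without untreated library 1 or 2 or plasma library 2 or 3 (adjusted p 0.0545 to 0.145).

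Hemidesmosome and keratin genes were mostly lower. Of 10 hemidesmosome genes, with the laminin chains that bind them, 8 fell and 1 rose. ITGB4, the integrin chain that anchors basal cells, measured 2023, 2047 and 2169 CPM untreated and 1122, 1147 and 1086 CPM after plasma (log2 fold change -0.90, SE 0.041, adjusted p 2.71e-17). The laminin chain LAMB3 fell from 1495 to 871 CPM. Of 15 keratins 10 fell and 1 rose, and limma on log2(TPM + 1) called 6 lower. Of 21 cell junction genes 10 fell (47.6%) and 3 rose (14.3%), beside 24.2% and 25.9% of all genes. Of 11 genes of the cornified layer 4 fell (36.4%) and 3 rose (27.3%), so the share that rose was near that of all genes. Of these 11, limma on log2(TPM + 1) called 0 lower with a filter on low values and 1 without. KRT17 and KRT6A of activated keratinocytes, both with close copies, fell from 1473 to 689.9 CPM and from 1231 to 969 CPM, and the basal KRT5 rose from 132 to 201 CPM. TP63 fell from 389.9 to 334 CPM (-0.22), which limma on log2(TPM + 1) did not call (adjusted p 0.149). Of 18 protease and inhibitor genes 10 fell and 3 rose, with MMP1, a collagenase, from 1280.1 to 948 CPM.

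Some of the 12 largest rises and 12 largest falls belong to none of these groups. ZNF488, a transcriptional repressor, measured 1.35, 1.55 and 2.03 CPM untreated and 9.64, 11.7 and 10.3 CPM after plasma (log2 fold change 2.70, SE 0.17, adjusted p 2.86e-14). APLN, the peptide ligand apelin, rose from 4.74 to 21.9 CPM (2.19). CPA4, a carboxypeptidase, measured 8.28, 8.88 and 8.65 CPM untreated and 34.6, 34.4 and 40.3 CPM after plasma (log2 fold change 2.08, SE 0.090, adjusted p 6.74e-18). DGAT2, which completes triglyceride synthesis, rose from 3.19 to 12.2 CPM, CXXC5 from 2.796 to 10.6 CPM and the protease ADAMTS1 from 5.03 to 19.1 CPM. KLHDC7B fell from 11.9 to 0.974 CPM (-3.59), IL20RB, a receptor chain for IL-20 family cytokines, from 23.1 to 2.76 CPM, and LURAP1L from 52.05 to 6.69 CPM. OSCAR, a collagen receptor, fell from 35.5 to 3.34 CPM, and FKBP9P1, a pseudogene whose reads may come from its parent gene, fell from 23.3 to 2.95 CPM. All of these had no overlap between groups, which the rule that chose them required. The same rule also picked HERPUD1, DDIT3, SESN2, CHAC1, ASNS, ULBP1, HSPA1A, HSPA1B, UHRF1, E2F2, E2F8 and FAM111B. For those genes too the lack of overlap described above is no separate result.

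**Figure D3:**
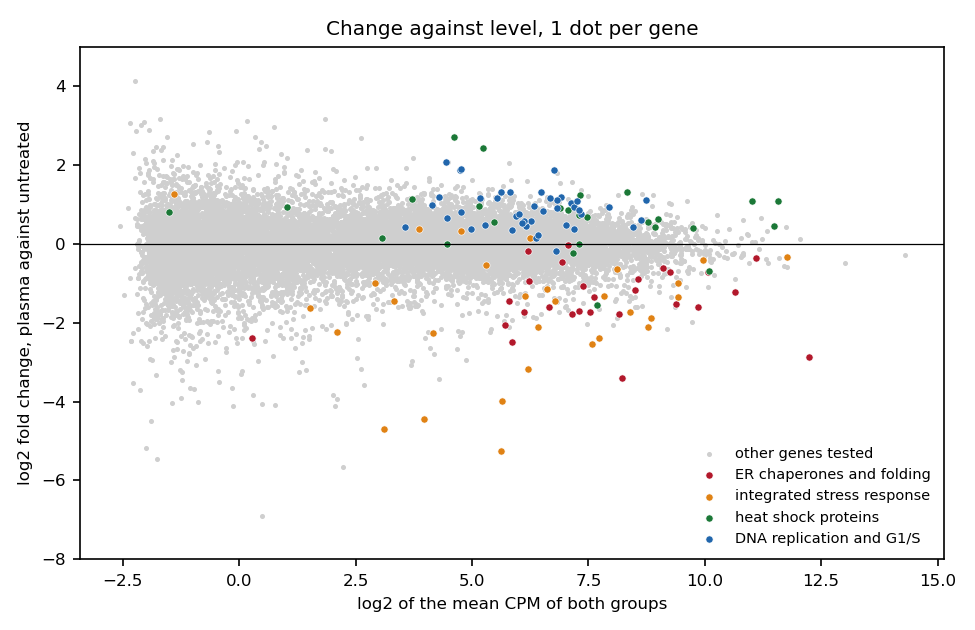
Log2 fold change of plasma over untreated against the log2 of the mean CPM of both groups, 1 dot per gene tested with counts in both groups. The 4 coloured lists are ER chaperones, integrated stress response, heat shock and replication genes. The ER chaperone dots lie under 0 across the range of levels, and the replication dots lie over 0 with the exception of CDC6.

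The other 3 lines show how far these changes were those of Hth83. All 24 libraries were fitted together, and the response of Hth83 minus the mean response of Cal27, A375 and Fadu was tested for each of 23642 genes. It was larger in Hth83 for 3641 genes (15.4%) and smaller for 3715 (15.7%), 7356 in all (31.1%). The lines share no control libraries. Genes too scarce to test within Hth83 could enter this fit through lines where they were higher. Each line's list median covers the genes tested in that line. In each line by itself 45.1% (Cal27), 50.5% (A375) and 53.3% (Fadu) of the genes tested passed.

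Of 27 ER chaperone genes 24 had a smaller value in Hth83 than in the mean of the others and 0 a larger one, beside the 15.7% and 15.4% of all genes. The list's median was -1.44 in Hth83, -0.22 in Cal27, 0.27 in A375 and -0.50 in Fadu. HSPA5 had the smallest p of all genes with a smaller value, a difference of -2.56 (SE 0.042, adjusted p 1.35e-42). Its log2 fold changes were -2.88 in Hth83, -0.62 in Cal27, 0.71 in A375 and -1.04 in Fadu. On a scale common to all 24 libraries, which differs slightly from that used within Hth83, HSPA5 stood at 9023 ± 582 CPM (mean ± SD, n = 3) in untreated Hth83. It stood at 4660.1 ± 95.5 CPM in untreated Cal27, 2325 ± 19.8 CPM in untreated Fadu and 686 ± 16.6 CPM in untreated A375. After plasma it was 1220.4 ± 4.88 CPM in Hth83, 1137 ± 68.97 CPM in Fadu, 1103 ± 28.2 CPM in A375 and 3030.0 ± 19.8 CPM in Cal27. The lines thus spanned a wide range untreated, with Hth83 at the top, and Hth83, Fadu and A375 stood near 1 level after plasma. HYOU1, SYVN1, SEC24D and GFPT1 were also among the 10 smallest p of that direction, with differences of -1.47, -1.63, -1.89 and -1.83.

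**Figure D4:**
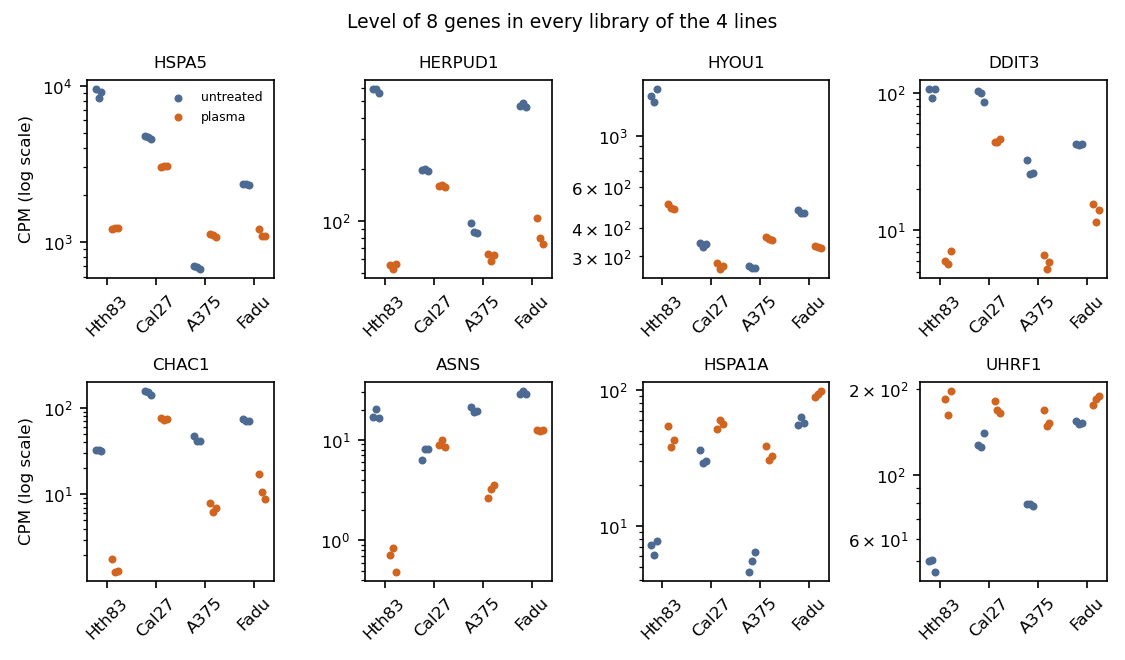
Level of 8 genes in every library of the 4 lines, in CPM on a common scale and a log axis; dots are single libraries, blue untreated and orange plasma. HSPA5, HERPUD1 and HYOU1 are highest in untreated Hth83, and HSPA5 rises after plasma in A375 alone of the 4 lines.

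The integrated stress response had a negative median in all 4 lines. It was -1.44 in Hth83, -0.31 in Cal27, -0.98 in A375 and -0.78 in Fadu, and 21 of 32 genes had a smaller value in Hth83. DDIT3 changed by -4.00 in Hth83, -1.08 in Cal27, -2.23 in A375 and -1.64 in Fadu, and its difference from their mean was -2.35 (SE 0.12, adjusted p 1.61e-17). GTPBP2 and MAP1LC3B, whose transcripts are linked to ATF4, differed by -1.73 and -1.79. AREG fell in Hth83 (-2.17) and in Cal27 (-1.35) and rose in A375 (0.94) and Fadu (0.53), a difference of -2.20. MXD1, a partner of MAX that opposes MYC, and ARHGEF2, a microtubule-bound activator of RHOA, completed the 10 with differences of -2.09 and -1.39.

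Replication genes rose more in Hth83 than in the other lines on average: 42 of 44 had a larger value than the mean of the others and 1 a smaller one. Their median was 0.89 in Hth83, 0.0018 in Cal27, 0.41 in A375 and 0.076 in Fadu. UHRF1 stood at 48.9 ± 2.44 CPM in untreated Hth83, the lowest of the 4 lines, and at 180.4 ± 17.1 CPM after plasma, beside 78.8 ± 0.923 CPM in untreated A375, 131 ± 7.66 CPM in untreated Cal27 and 152 ± 1.87 CPM in untreated Fadu. After plasma the other 3 lines stood at 156 ± 10.4 CPM (A375), 171 ± 8.901 CPM (Cal27) and 183 ± 6.81 CPM (Fadu). Of 50 mitosis genes 43 had a larger value in Hth83 and 0 a smaller one. Their median was 0.46 in Hth83, 0.24 in Cal27, 0.14 in A375 and -0.29 in Fadu. In Cal27 31 of the 50 rose and in A375 29, whereas in Fadu 36 fell.

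For heat shock proteins A375 came nearest to Hth83. Of 31 genes 20 had a larger value in Hth83 and 3 a smaller one, and 26 of the 31 were tested within Hth83. Medians over the genes tested in each line were 0.65 in A375 and 0.71 in Hth83, while Cal27 and Fadu stood at 0.062 and 0.063. In Cal27 14 of 30 rose and 9 fell, and in Fadu 13 of 31 rose and 9 fell. On the common scale mean HSPA1A was higher after plasma in all 4 lines. It went from 6.96 to 44.9 CPM in Hth83, 5.49 to 33.9 in A375, 31.6 to 55.8 in Cal27 and 58.8 to 93.4 in Fadu. HSP90AA1 differed by 0.86 (SE 0.042, adjusted p 9.78e-23).

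Interferon-stimulated genes had a median over 0 in Hth83 and under 0 in Cal27 and Fadu, and in A375 9 of 51 rose and 14 fell. Of 57 interferon-stimulated genes 41 had a larger value in Hth83 and 2 a smaller one. Of the 57 only 45 had enough counts to be tested within Hth83, beside 57 in Cal27, 51 in A375 and 57 in Fadu. The others could enter the joint fit through lines where they were higher, and their Hth83 values rest on few counts. Medians over the genes tested in each line were 0.34 in Hth83, -0.75 in Cal27, 0.019 in A375 and -0.90 in Fadu. OAS3 rose in Hth83 (1.08) and in A375 (0.34) and fell in Cal27 (-0.49) and Fadu (-0.90), a difference of 1.42 (SE 0.051, adjusted p 8.15e-28). PARP9 differed by 1.36. Of 25 cholesterol genes 19 had a larger value in Hth83 and 1 a smaller one. Their median was 0.36 in Hth83, -0.038 in Cal27, 0.035 in A375 and -0.75 in Fadu, where 21 of 25 fell. The difference from the mean thus holds a fall in Fadu as well as the rise in Hth83. Others of the 10 genes with the smallest p for a larger value were BCAM, an adhesion receptor for laminin (1.94), ETV6, a transcriptional repressor (1.45), TNFAIP2, an NF-kB target (1.58), MARCKSL1, an actin regulator (1.22), and IFFO2 (1.36).

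NRF2 targets, the antioxidant list, set the lines apart in another way. Of 30 genes 12 had a larger value in Hth83 and 11 a smaller one. Their median was 0.069 in Hth83, 0.43 in Cal27, 0.30 in A375 and -0.78 in Fadu, so Hth83 lay between lines in which most of these genes rose and 1 in which most fell.

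**Figure D5:**
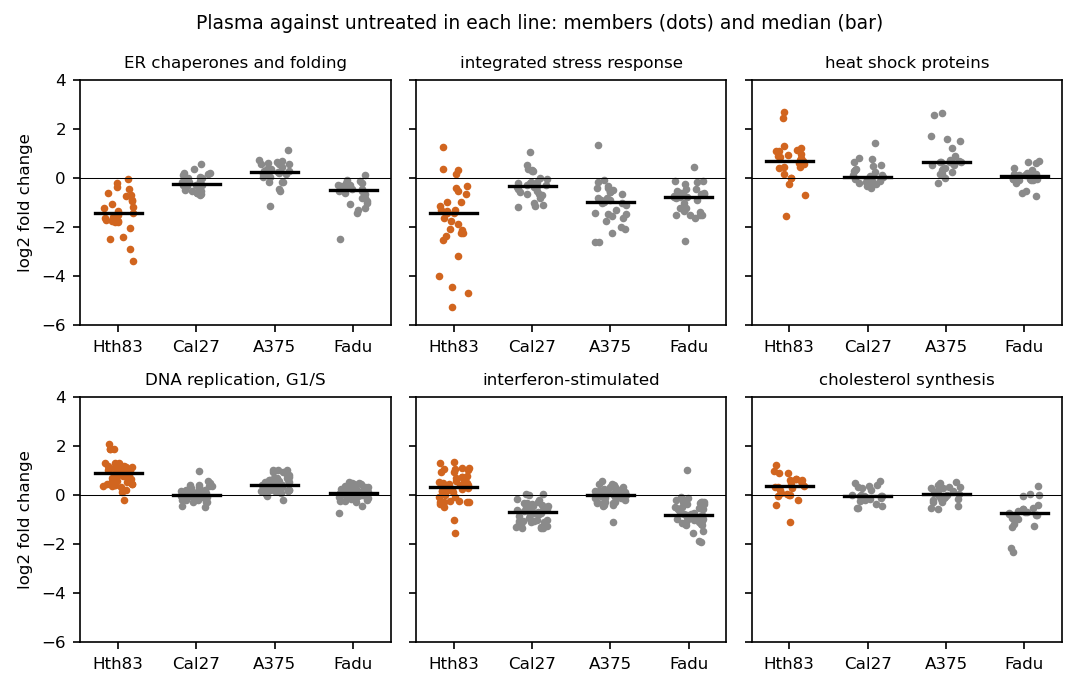
Log2 fold change of plasma over untreated in each line for the members of 6 lists that were tested in Hth83. Dots are genes, orange for Hth83 and grey for the other lines, and the bar is the median. ER chaperones are lowest in Hth83, and interferon-stimulated genes lie mostly over 0 in Hth83 and under 0 in Cal27 and Fadu.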

How the data were processed

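RNA was sequenced from 4 cell lines, each untreated and after plasma with 3 libraries per group. The authors deposited 1 table per line with raw counts and TPM per gene. The submitters' processing notes name HISAT2 as a tool and GRCh38 as the build. The sources used here give no counting tool, annotation release or use of strand. Genes are those of the tables' Ensembl identifiers. A separate list of gene names gave the symbols of 61415 identifiers, GENCODE 29 those of 105, and 13 had none. Positions are from GENCODE 29 (GRCh38), matched without the version of the identifier.

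Counts of the 6 Hth83 libraries were tested with edgeR 4.0.16 in R 4.3.3 (filterByExpr with its minimum count of 10 and total of 15, TMM, robust quasi-likelihood fit, Benjamini-Hochberg adjustment over all genes tested, threshold 0.05). The difference from the other lines was a contrast in 1 fit of all 24 libraries. Alternatives were DESeq2 1.42.0, limma 3.58.1 on log2 of the deposited TPM plus 1 or 0.1, other scaling and filters, a replicate block and leaving out each library in turn. The fits were tested on simulated data, where limma on log2(TPM + 1) missed small changes that edgeR partly recovered. A larger share of its calls was false there. The simulated data had few changed genes and the same biological variation for every gene, unlike the data used here. They therefore cannot say what a missing limma call means for these libraries.

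The gene lists were chosen with earlier results of these data known, and 5 lists and several of the genes named were chosen after their values were seen. Named by rule were the 12 largest rises and 12 largest falls among genes with at least 10 CPM in the higher group and no overlap between groups, up to 4 members with the smallest p of each list, a panel of defining genes, and the 10 genes with the smallest p in each direction of the difference. A list is described by its counts and median, with no test. Promoters are the 250 bases before RefSeq gene starts (GRCh38.p14), matched by symbol. Total counts were 29808568 to 37882250 per Hth83 library. Libraries of 1 group differed by more than counting error (chi-square per degree of freedom 4.03 to 7.91 between pairs), so depth alone does not set the precision. Some genes that these rules name are not reported here.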

Additional observations from a re-analysis of the deposited data

Results flagged for a closer look

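The response of Hth83 differed from the mean response of Cal27, A375 and Fadu, in edgeR's quasi-likelihood test of that difference over all 24 libraries, for 3641 genes with a larger value in Hth83 and 3715 with a smaller one. Each gene given here is among the 10 with the smallest p in its direction, and values are differences of log2 fold changes. With a larger value in Hth83 they were BCAM (1.94), OAS3 (1.42), PARP9 (1.36), ETV6 (1.45), HSP90AA1 (0.86), IFFO2 (1.36), TNFAIP2 (1.58) and MARCKSL1 (1.22). With a smaller value they were HSPA5 (-2.56), GTPBP2 (-1.73), HYOU1 (-1.47), GFPT1 (-1.83), AREG (-2.20), MAP1LC3B (-1.79), SYVN1 (-1.63), MXD1 (-2.09), ARHGEF2 (-1.39) and SEC24D (-1.89). BCAM rose in Hth83 (1.09) and fell in Cal27 (-0.66), A375 (-0.85) and Fadu (-1.06). GFPT1 fell by 1.89 in Hth83, with 0.11 in Cal27, -0.30 in A375 and -7e-04 in Fadu.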

How the results depend on the processing

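The counts kept within 1.5 times of their values under DESeq2 (4032 higher, 3870 lower), other scaling, no filter and no robust estimation. With limma the genes lower numbered 2563 on log2(TPM + 1), 2525 on log2(TPM + 0.1) and 2205 without a filter. Genes at least 2-fold higher were 357 with at least 1 CPM in 3 libraries, 351 on log2(TPM + 1) and 312 without a filter. Genes at least 2-fold lower were 534 with at least 1 CPM in 3 libraries, 449 on log2(TPM + 1), 516 on log2(TPM + 0.1) and 390 without a filter. The stricter CPM filter tests fewer genes (13895), and otherwise the cause was not tested. The share of higher genes among those that passed was 61.0% and 61.3% in the filtered TPM fits and 58.1% with library size only. Without 1 library in turn the counts ranged from 4027 to 4348 higher, 3759 to 4158 lower, 509 to 608 and 770 to 931 at least 2-fold, and for the difference from the other lines from 3319 to 3648 larger and 3196 to 3421 smaller. The replicate numbers do not pair the libraries, since correlations of same-numbered libraries' deviations ran from -0.008 to 0.006. With the replicate block 4459 genes were higher, 4193 lower, 552 and 824 at least 2-fold, and 3547 and 3621 for the difference. Of 1156 list counts 30 moved by over 1.5 times, among them keratins lower (6 on log2(TPM + 1) and on log2(TPM + 0.1)), and without a filter ribosomal proteins lower (38), BCL2 family higher (5), immediate early lower (6) and ERK feedback lower (6). Of 205 named genes that passed, 25 lost the call in at least 1 alternative, 21 of them with limma on TPM and 9 without 1 library. The other 2 were THBS1 (adjusted p 0.0565 with the block) and MT2A (0.116 in the joint fit of all 24 libraries). Signs turned only among genes that did not pass. ERO1A was 0.026 with library size only, 0.038, 0.039 and 0.038 in the 3 limma fits, and from -0.0616 to 0.0452 without 1 library in turn. MDM2 was 0.0018 in the limma fits. DNAJB6 was -0.0040 with DESeq2's size factors, -0.0097 with the CPM filter, -0.0034 in the joint fit, and from -0.0043 to 0.0124 without 1 library in turn. Depth limits genes under about 1 CPM, and HSPA1A with HSPA1B, HLA and ribosomal protein genes share sequence.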

Other observations

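Respiration genes that changed mostly rose, in small steps. Of 72 nuclear-encoded respiratory chain subunits 33 rose and 5 fell (median 0.13). The median of that list was -0.33 in Cal27, 0.19 in A375 and 0.16 in Fadu. No gene of the mitochondrial genome had a count in any of the 6 libraries, so the chain's mitochondrial subunits are not analysed here. Of 17 circadian clock genes 9 fell (52.9%) and 2 rose (11.8%), beside 24.2% and 25.9% of all genes (median -0.27). The repressor gene PER1 fell from 14.2 to 9.09 CPM and NR1D1 fell from 16.9 to 11.1 CPM. Of 13 ferroptosis regulators 7 rose (53.8%) and 3 fell (23.1%), so the share that fell was near that of all genes. SLC7A11 was 1 of the 3 that fell. GPX4, which reduces lipid peroxides, did not pass, at a mean of 183 CPM untreated and 170.3 CPM after plasma, although it did without plasma library 2 (edgeR quasi-likelihood adjusted p 0.0385).

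Some genes that most cells use were low in every Hth83 library on the deposited counts. Over the untreated libraries ALDOA, a glycolytic aldolase, had a mean of 12.3 CPM, the proteasome subunit PSMA2 1.98 CPM, the repair gene RAD50 8.64 CPM and the mitotic genes PRC1 and NUSAP1 1.76 and 0.717 CPM. The cause was not tested. HSPA5P1, a pseudogene of HSPA5, fell from 0.789 to 0.0471 CPM together with its parent gene, and its reads may come from the parent gene.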
